A study of Arabidopsis thaliana with 24 samples.

Results

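The comparison set 6 arrays of pkl germinating seeds against 6 arrays of wild type germinating seeds, both with solvent only, chosen by the genotype and medium that the labels give, which is 12 of the 24 arrays of the study. PICKLE (PKL) encodes a CHD3-type chromatin remodelling protein, and the pkl mutant lacks normal function of it. The wild type was Columbia. Both groups were Arabidopsis thaliana seeds on solidified Murashige and Skoog medium that held 0.01% methanol, the solvent of uniconazole, in constant light. The other 12 arrays were the same 2 genotypes on 10 nM uniconazole, an inhibitor of gibberellin synthesis. Their results are given only where stated, but they also entered the estimate of the spread behind each limma p-value. The labels name 6 biological replicates a group. They give neither the pkl allele, how old the seeds were at harvest nor which cultures were grown apart, so a difference in progress through germination and an effect of the mutation cannot be told apart. All non-control probe sets were described, 22746 of the 22810 on the ATH1 array. A probe set is a group of short oligonucleotides that reports 1 transcript or a few related ones.

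CHD3 remodellers use ATP to move or assemble nucleosomes and so change which parts of the chromatin can be read. In Arabidopsis PICKLE is best known for the switch from embryo to seedling: pkl seedlings can keep embryonic traits such as storage reserves in the primary root, and inhibitors of gibberellin synthesis make this more frequent. PICKLE is also linked to the repressive histone mark that Polycomb group proteins place on developmental genes. PKL's own transcript was not analysed here, so it gives no check of the genotype labels.

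In solvent 1542 probe sets were higher in pkl than in wild type and 1130 lower, which is 6.78% and 4.97% of the 22746 tested and 11.7% together (limma with Benjamini-Hochberg adjustment over all 22746, threshold 0.05). Scaling each array to one median turned the balance to 1131 higher and 1437 lower. The changes were mostly small. Their median size was 0.46 on the log2 scale, and 365 probe sets, 1.6%, changed by at least 1, of which 220 rose and 145 fell. With an offset of 64 in place of 16 before the logarithm, 182 passed that size. Changes of 2 or more were seen for 31 higher and 11 lower probe sets. The groups did not overlap for 6.29% of the probe sets. Every pkl array lay above every wild type array for 845 probe sets (3.71%) and below every wild type array for 586 (2.58%). All log2 changes are pkl minus wild type on log2(signal + 16), which understates changes at low signal. Signals are linear intensities as deposited.

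**Figure D1:**
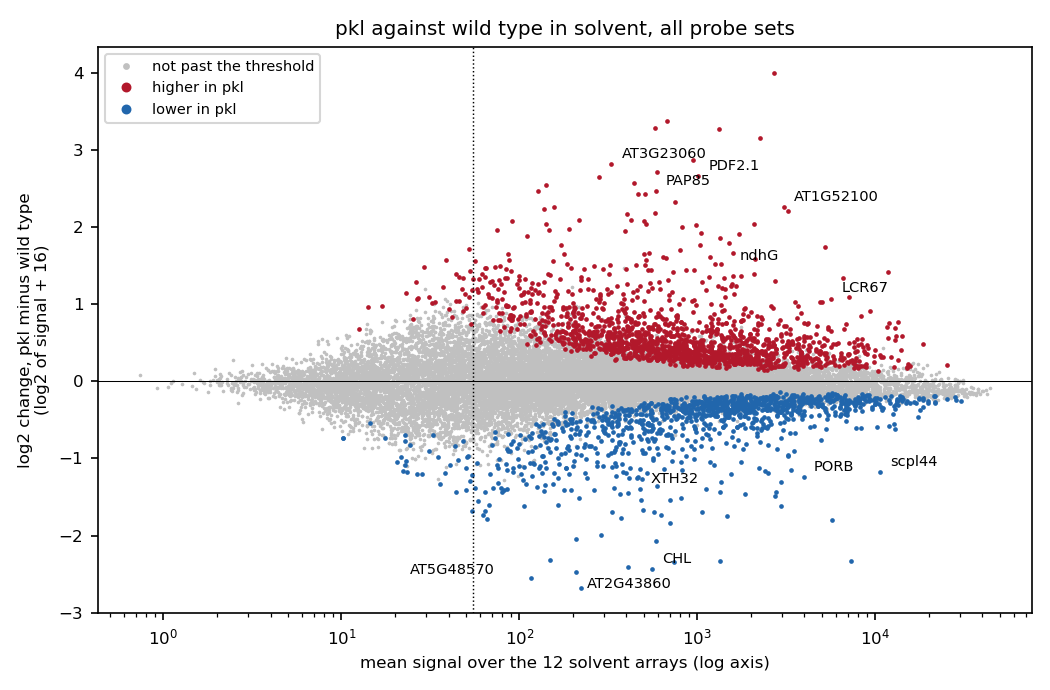
Log2 change, pkl minus wild type in solvent (vertical axis, on log2 of signal + 16), against the mean signal of the 12 solvent arrays (horizontal log axis), 1 point a probe set. Red points are the 1542 probe sets higher in pkl, blue points the 1130 lower, grey points did not pass, and the dotted line is the bacterial control level of 54.9.

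Calls were scarce at low signal. When the probe sets were split into 5 equal parts by their mean signal over the 12 arrays, 1.19% of the dimmest part passed, then 6.51%, 13.7%, 16.5% and 20.8% of the brightest. Median sizes of the called changes ran the other way, with 1.04 in the dimmest part and 0.32 in the brightest. In the brightest part more probe sets fell (493) than rose (454), whereas in each of the 3 middle parts more rose. The level reached by 95% of 648 values of bacterial control probe sets, which have no target in plant RNA, was 54.9. For genes with 1 group mean no higher than this level, "at least" marks the ratio of the brighter mean to 54.9, and genes with neither mean higher have no ratio.

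No array stood apart, with median correlations of 0.975 to 0.981 to the other arrays of its group. Median signals were 331 to 354 in pkl and 315.0 to 356 in wild type. Between 10.3% and 12.3% of the probe sets of a pkl array, and between 9.45% and 13% of a wild type array, lay under 16. The 3′/5′ ratios of GAPDH, actin and ubiquitin control probe sets, which follow RNA integrity, gave exact permutation p-values of 0.465, 0.647 and 0.396 between the genotypes (two-sided, 6 against 6, adjusted p = 0.675 for each over 5 measures).

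The 30 genes with a symbol and the largest changes are shown array by array in the plot of symbol genes. Among the 15 highest, 12 had groups that did not overlap, and among the 15 lowest 11. They were chosen by the size of their change on these same arrays, which favours groups apart. Of all called probe sets changed by at least 1, 270 of 365 (74.0%) did not overlap, and of all probe sets 6.29%. A defensin gene and 2 seed protein genes led the 15 that rose. PDF2.1 (AT2G02120), which encodes a defensin, a small cysteine-rich antimicrobial peptide, had signals of 1412, 1759 and 2151 in pkl, against 213, 259 and 327 in wild type (lowest, median and highest of 6 arrays, as for each such triple in the text). All pkl arrays lay far above all wild type arrays (log2 difference 2.67 ± 0.11, SE, and adjusted p = 2.48e-15). PAP85 (AT3G22640), a vicilin-like storage protein gene of seeds, had 819, 997 and 1209.9 in pkl, against 134, 160.4 and 223 in wild type, again without overlap (log2 difference 2.47 ± 0.14, SE, and adjusted p = 1.00e-12). M10 (AT2G41280), whose product belongs to the late embryogenesis abundant proteins, had 141, 273 and 378 in pkl, against 20, 37.6 and 82.3 in wild type. Its groups did not overlap, and with the wild type mean at 45.8, under the bacterial control level, the rise was at least 4.9-fold (log2 difference 2.26 ± 0.30, SE, and adjusted p = 5.42e-06).

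**Figure D2:**
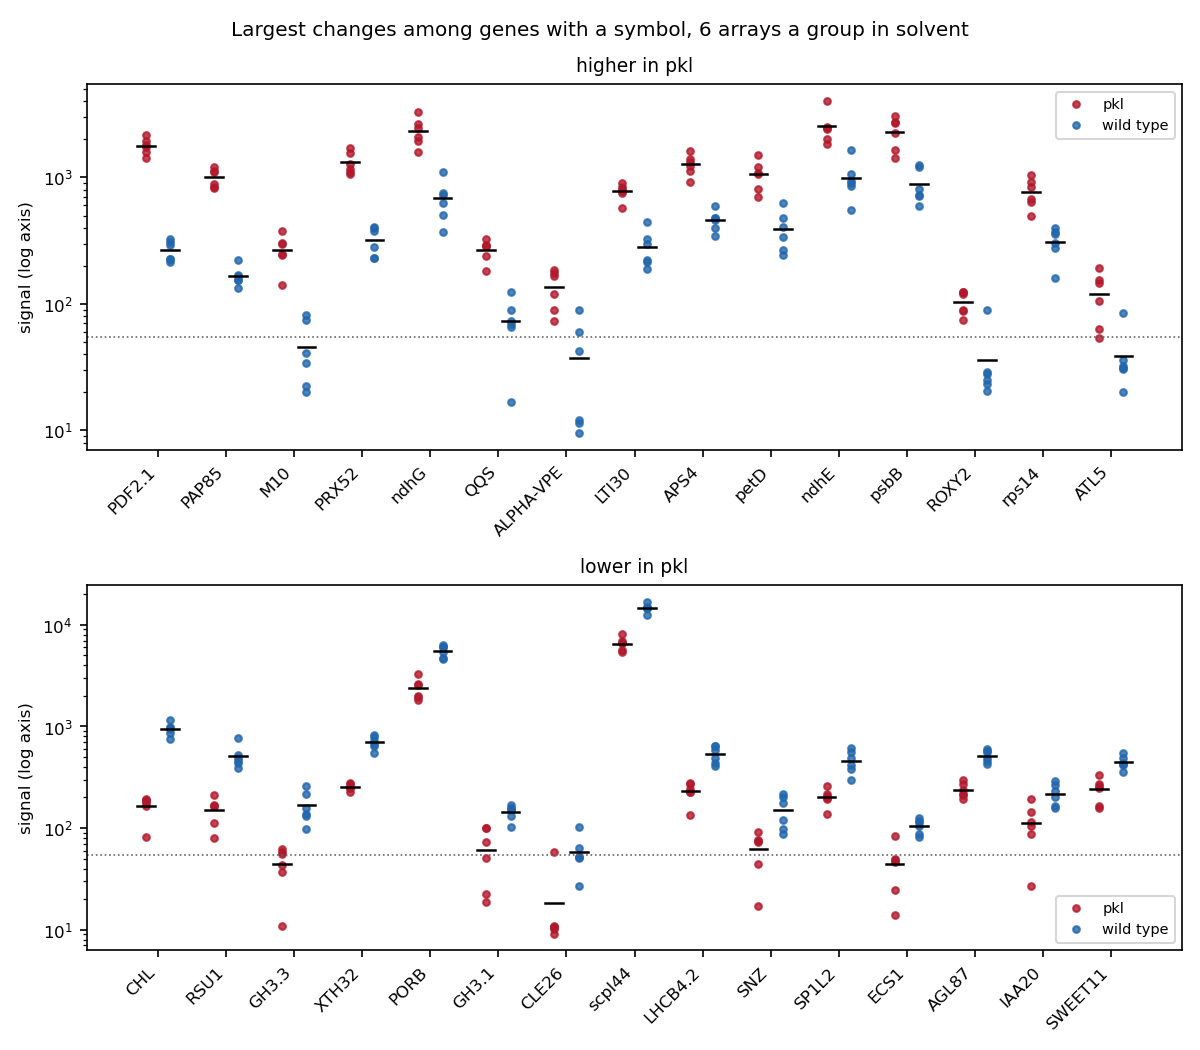
Signal on each array (points, log axis) of the 15 genes with a symbol that rose most (top) and the 15 that fell most (bottom), with pkl in red on the left of each pair and wild type in blue on the right, 6 arrays each in solvent. Black bars are means and the dotted line is the bacterial control level of 54.9. PDF2.1 and PAP85 had no overlap between genotypes, and ROXY2 had 1 wild type array at 88.7 among the pkl values.

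The other genes of seed maturation and germination moved less uniformly. The dehydrin gene LTI30, whose product protects cells under drying and cold, had 575, 792 and 906 in pkl, against 187, 261 and 445 in wild type, with no overlap (log2 difference 1.45, adjusted p = 5.84e-07). Gene lists here hold only genes with a symbol, apart from organelle-encoded genes and pseudogenes. Family members known by locus code or without a gene name are not counted. Each list count is to be read beside the 6.78% of all probe sets that rose and the 4.97% that fell. Of the 1580 probe sets with a symbol, 9.37% rose and 6.39% fell, 15.8% together. Lists made from symbols are also to be read beside these shares. Of the 12 late embryogenesis abundant, dehydrin and cold-regulated genes measured, 2 rose, 0 fell and 10 did not pass. The median log2 difference of the list was 0.10, beside 0.0011 over all probe sets. M10 and LTI30 were the 2 that rose. ALPHA-VPE, a vacuolar processing protease gene, had 73.4, 144 and 187 in pkl, against 9.5, 27.4 and 90.3 in wild type. Its highest wild type array overlapped the pkl range (log2 difference 1.66, adjusted p = 0.00288), and it was the 1 of 4 genes of its family to pass. OLEO3, which encodes an oleosin that coats seed oil bodies, went the other way from PAP85, with 1119, 1359 and 1734 in pkl, against 1598, 2052 and 2577 in wild type and a small overlap (log2 difference -0.57 ± 0.10, SE, and adjusted p = 1.52e-04). None of the 6 embryo and germination regulators named on the array, among them BBM and EEL, passed (limma). With arrays scaled to one median 1 fell, as 1 did with the replicate number added to the fit as a block.

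Markers of tissues that a germinating seed holds were read beside these genes. Not all markers chosen were named on the array. Named were 1 of 6 seed coat, 2 of 5 root hair, 3 of 6 seedling leaf, 2 of 4 reserve mobilisation and 0 of 4 endosperm markers. Of 13 embryo and reserve markers chosen for the comparison, PAP85 and OLEO3 were named on the array, and their summed signal was 2007 to 2864 in pkl and 1768 to 2733 in wild type. ICL and SDP1, an enzyme of the glyoxylate cycle and a lipase that use stored oil after germination, were both well measured and neither passed. ICL had 34389, 35506 and 41289 in pkl, against 35339, 38573 and 44855 in wild type, and the ranges overlapped almost wholly (log2 difference -0.10, adjusted p = 0.473). SDP1 averaged 2544 ± 208 in pkl against 2429.7 ± 182 in wild type (± SD over 6 arrays each, log2 difference 0.065, adjusted p = 0.698). The root hair expansin genes EXPA7 and EXPA18 summed to 653 to 1917 in pkl and 529.6 to 1122 in wild type, and neither passed (log2 difference 0.61, adjusted p = 0.194; log2 difference 0.49, adjusted p = 0.299). Of the seedling leaf markers LHCB4.1, LHCB4.2 and RCA, LHCB4.2 passed, and their sum was 5078 to 6953 in pkl and 6757 to 9675 in wild type. RCA (log2 difference -0.32, adjusted p = 0.0583) passed with arrays scaled to one median (0.0349), the replicate block (0.0401) or dim probe sets left out (0.0405), and without pkl replicate 2, pkl replicate 3 or wild type replicate 1 (0.0437, 0.0317 and 0.022). LHCB4.1 (log2 difference -0.33, adjusted p = 0.11) passed with the solvent arrays alone (0.00722). BAN, a seed coat gene, stayed under the bacterial control level on every array, with a highest signal of 39.8, and no endosperm marker was named. In whole seeds, fewer cells of a type and less RNA per cell cannot be told apart. The part of tissue makeup in the other results was not tested.

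Some genes of small defence peptides were also higher. Of 17 defensin, thionin and cysteine-rich peptide genes measured, 5 rose, 0 fell and 12 did not pass (median log2 change 0.10). With arrays scaled to one median, or with the replicate block, 1 member fell besides the 5 that rose. LCR67, a defensin gene, was the brightest of them, with 7119, 7429 and 8788 in pkl, against 3255, 3639 and 3938 in wild type (log2 difference 1.08 ± 0.074, SE, and adjusted p = 4.09e-11). The genotypes were separated by a wide gap, and the fold of 2.11 was measured at signals far above background. PDF1.4 had 120.1, 201 and 231 in pkl, against 60.6, 98 and 120.3 in wild type (log2 difference 0.88, adjusted p = 0.00672), and its groups touched at 120.3. PDF2.5 (log2 difference 0.72, adjusted p = 0.0162) missed the threshold without pkl replicate 5 (adjusted p = 0.0513). PDF1.2b was the other member that rose.

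Hormone genes changed in both directions. Of 18 auxin genes, 3 rose, 4 fell and 11 did not pass (median -0.093). GH3.3 and GH3.1 encode enzymes that join auxin to amino acids and so lower free auxin. GH3.3 had 10.8, 49.2 and 62.5 in pkl, against 98, 148 and 258 in wild type, with no overlap. Its pkl mean, 44.6, did not reach the bacterial control level, and the fall was at least 3.04-fold (log2 difference -1.61, adjusted p = 2.23e-04). GH3.1 had 18.7, 61.6 and 101 in pkl, against 102, 154 and 167 in wild type, and the groups just failed to meet (log2 difference -1.2, adjusted p = 0.0162). WES1, another enzyme gene of that family, was higher in pkl, with 1402, 1709 and 1885 in pkl, against 966, 1109 and 1224 in wild type and no overlap (log2 difference 0.58, adjusted p = 5.85e-05). PID2, a protein kinase gene related to PINOID, had a pkl mean of 117 against 51.5 in wild type, under the bacterial control level, and was at least 2.13-fold higher (log2 difference 0.97, adjusted p = 0.0177). IAA20, an Aux/IAA repressor gene, had 27, 109 and 194 in pkl, against 157, 218 and 288 in wild type, and the groups overlapped. Its call (log2 difference -1.0, adjusted p = 0.0489) was lost without any 1 of 9 arrays (pkl replicates 1, 4, 5 and 6 and wild type replicates 2 to 6, adjusted p up to 0.142) and with an offset of 1, no variance trend or control-ratio covariates (up to 0.0844). IAA31 rose and IAA18 fell.

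Among 7 gibberellin signalling genes, 2 rose, 1 fell and 4 did not pass (median 0.033, and -0.019 with arrays scaled to one median). The receptor gene GID1A had 941, 993 and 1075 in pkl, against 605, 756 and 856 in wild type (log2 difference 0.42, adjusted p = 1.06e-04) and did not overlap. SLY1, the F-box gene whose product marks DELLA repressors for breakdown, had 919, 1171 and 1358 in pkl, against 743, 894 and 924 in wild type and a narrow overlap (log2 difference 0.43, adjusted p = 1.19e-04). GID1B, a second receptor gene, was lower in pkl (log2 difference -0.52, adjusted p = 0.0408), but not without any 1 of 8 arrays (pkl replicates 1, 2, 4 and 6 and wild type replicates 1 to 4, adjusted p up to 0.111), nor with an offset of 64, the solvent arrays alone, the replicate block or control-ratio covariates (up to 0.11). Of 16 genes of the cytokinin, ethylene, brassinosteroid and jasmonate pathways, 4 rose, 1 fell and 11 did not pass (median 0.12). Those that rose were MYC4 (log2 change 0.51), a jasmonate-response regulator, OPCL1 (0.48), an enzyme of jasmonate synthesis, EIN3 (0.34), the main transcription factor of ethylene responses, and BRH1, a brassinosteroid-responsive RING gene. EXO, a brassinosteroid-induced growth gene, had 1278, 1673 and 1756 in pkl, against 2115, 2229 and 2381 in wild type and fell without overlap (log2 difference -0.48, adjusted p = 2.47e-04).

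Cell wall families also split. Xyloglucan enzymes cut and rejoin the chains that tie cellulose fibrils together, and of 10 such genes 2 rose, 2 fell and 6 did not pass (median -0.26). XTH32 had 225, 252 and 275 in pkl, against 548, 693 and 825 in wild type, a wide gap (log2 difference -1.39 ± 0.14, SE, and adjusted p = 3.53e-08). XTH16 was lower as well (log2 difference -0.32, adjusted p = 0.00312), while XTH33 (log2 difference 0.79, adjusted p = 0.00175) and EXGT-A3 (log2 difference 0.36, adjusted p = 0.0109) were higher. Expansins loosen walls without cutting them. Of 18, 3 rose, 1 fell and 14 did not pass (median 0.15): EXLA1, EXPA4 and EXPA20 were higher by 0.58, 0.39 and 0.35 on the log2 scale, and EXPA9 was lower, with 6839, 8337 and 9184 in pkl, against 10627, 12332 and 14328 in wild type and no overlap (log2 difference -0.59, adjusted p = 5.26e-04).

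TBL genes encode proteins that acetylate wall polysaccharides. Of 22, 5 rose, 0 fell and 17 did not pass, while the median over the family was -0.081. Scaled to one median, 4 rose and 2 fell. With an offset of 64 or the replicate block, 5 rose and 1 fell. TBL26 had 344, 396 and 431 in pkl, against 101, 178 and 245 in wild type, and TBL36 had 180.2, 226 and 253 in pkl, against 82.4, 95.8 and 109.8 in wild type. Both were apart in all arrays (log2 difference 1.11, adjusted p = 7.10e-05 for TBL26; log2 difference 1.1, adjusted p = 5.99e-07 for TBL36). TBL21 rose by 0.78 with some overlap (adjusted p = 0.012). Of 29 cellulase and other wall polysaccharide genes, GH9C2, an endoglucanase gene, was the 1 that passed and fell (log2 difference -0.35, adjusted p = 0.016), against 3 that fell under either other scaling. SP1L2, of a family of microtubule-associated proteins that keep cell expansion straight, had 137, 203 and 259.5 in pkl, against 297, 454 and 609.7 in wild type and did not overlap (log2 difference -1.1, adjusted p = 9.91e-06).

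**Figure D3:**
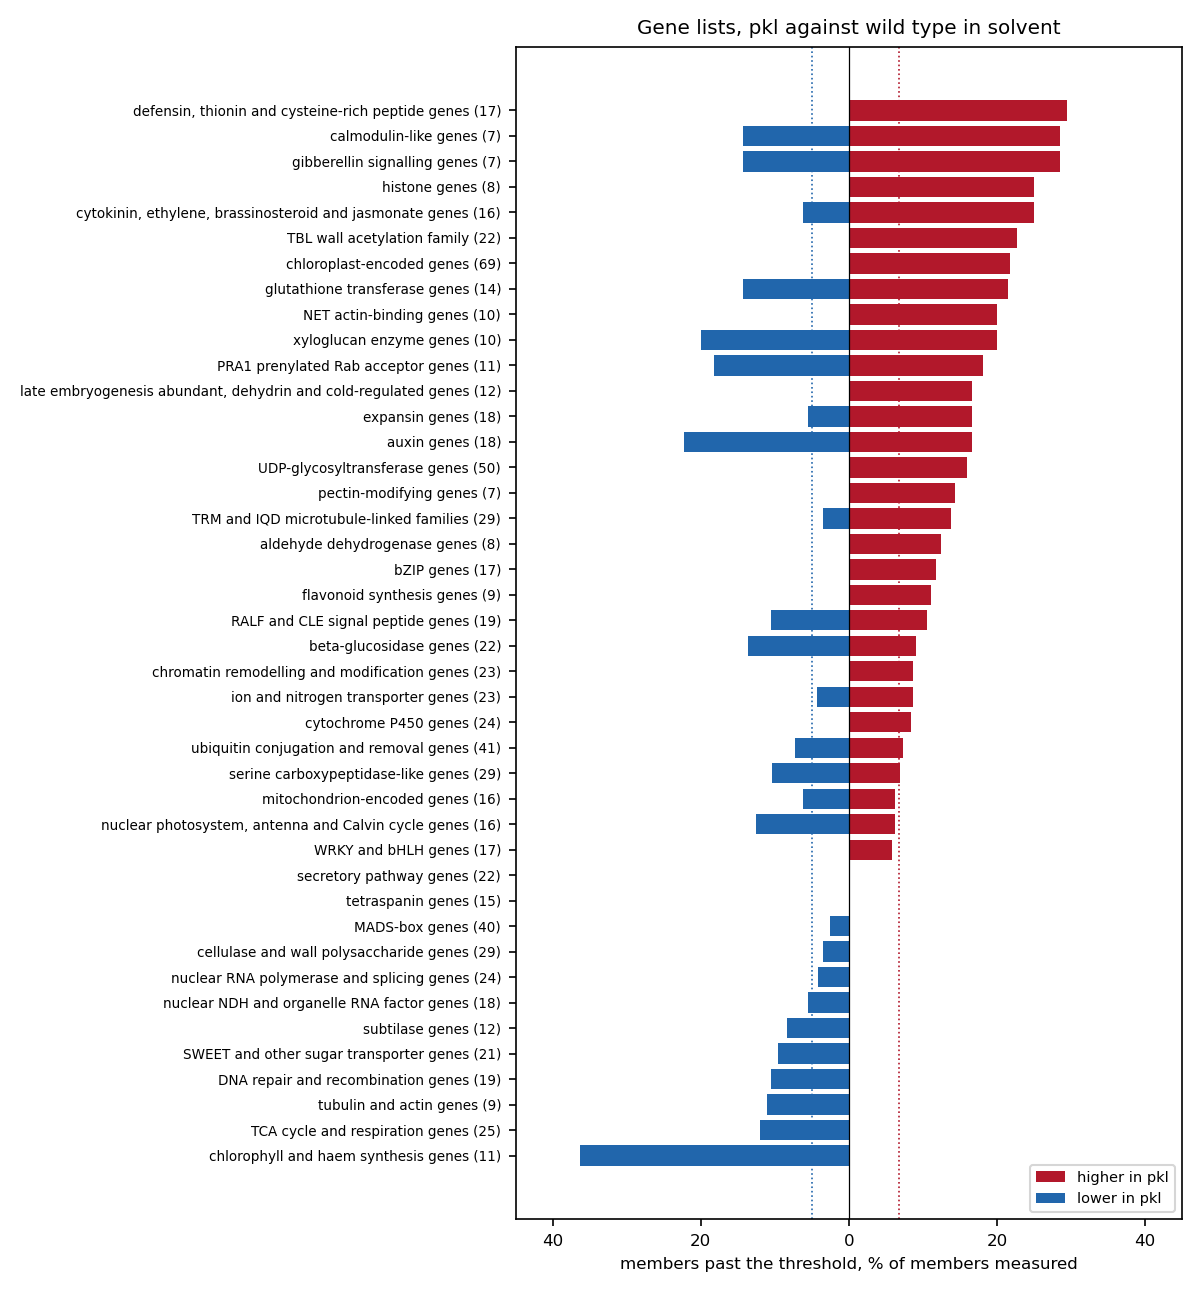
Share of each gene list's measured members (number in brackets) that rose (red, to the right) or fell (blue, to the left) in pkl against wild type in solvent, in percent, for lists of at least 7 members. The dotted lines mark 6.78% and 4.97%, the shares of all probe sets that rose and fell. Of probe sets with a symbol, 9.37% rose and 6.39% fell. Lists hold genes with a symbol only, apart from organelle-encoded genes. Chlorophyll and haem synthesis genes had 4 of 11 lower and chloroplast-encoded genes 15 of 69 higher. With arrays scaled to one median, 22 of the 48 lists changed a count, and the chromatin list had no call.

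Among nuclear genes of greening, most calls were lower. Of 11 chlorophyll and haem synthesis genes, 0 rose, 4 fell and 7 did not pass (median -0.12). PORB, the light-driven protochlorophyllide reductase gene, had 1832, 2268 and 3261 in pkl, against 4585, 5742 and 6313 in wild type, with no overlap (log2 difference -1.24 ± 0.15, SE, and adjusted p = 1.02e-06). CHLI2 and CHLM encode a magnesium chelatase subunit and a methyltransferase, both of the magnesium branch. CHLI2 had 1611, 1797 and 2027 in pkl, against 2122, 2311 and 2498 in wild type and no overlap (log2 difference -0.34, adjusted p = 9.49e-04), and CHLM 2450.1, 2880.3 and 3274 in pkl, against 3140.2, 3558 and 4179.5 in wild type with a small overlap (log2 difference -0.31, adjusted p = 0.0066). HEME2 also passed (log2 difference -0.24, adjusted p = 0.0245) but lost the call without any 1 of 5 arrays (pkl replicates 4, 5 and 6 and wild type replicates 4 and 6, adjusted p up to 0.0769). Of 16 nuclear photosystem, antenna and Calvin cycle genes, 1 rose, 2 fell and 13 did not pass (median -0.15). With arrays scaled to one median or dim probe sets left out 4 fell, and with the replicate block 3. LHCB4.2, a minor antenna protein gene of photosystem II, had 133, 235 and 280.2 in pkl, against 409, 535 and 645 in wild type (log2 difference -1.17 ± 0.20, SE, and adjusted p = 1.39e-04) and did not overlap. PSBY fell by 0.40 (adjusted p = 0.00126) and SBPASE, a Calvin cycle phosphatase gene, rose, with 3613, 3849 and 4821 in pkl, against 2451, 2807 and 3066 in wild type (log2 difference 0.52, adjusted p = 1.61e-05). CHL (AT3G47860), the gene of a lipocalin that protects thylakoid lipids, fell most of all genes with a symbol, with 82, 182 and 195 in pkl, against 755, 950.1 and 1153 in wild type and a wide gap between the groups (log2 difference -2.44 ± 0.17, SE, and adjusted p = 2.87e-11).

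Genes of the chloroplast genome were called as higher or not at all, also under both other scalings. The 69 genes measured had 15 that rose, 0 that fell and 54 that did not pass (limma, 50 of 69 with a positive log2 change, median 0.17). In annotation order 9 of the 15 lay in 4 stretches of 2 or 3 neighbours that rose, and 6 stood alone between genes that did not pass. Chloroplast genes are transcribed together in clusters and their RNAs are then cut, edited and trimmed. In the ndh cluster, which encodes subunits of the NADH dehydrogenase-like complex, ndhG had 1575, 2275 and 3309 in pkl, against 369, 677 and 1111 in wild type (log2 difference 1.79 ± 0.27, SE, and adjusted p = 2.59e-05). Its neighbours on one side, ndhE and psaC, rose by 1.37 and 0.75 (adjusted p = 0.00157 and 0.0114). On its other side ndhI had 9184, 10950.4 and 11929.9 in pkl, against 9385, 10928 and 12469.6 in wild type, a full overlap (log2 change 0.00057, adjusted p = 0.999).

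The same held in the psbB cluster, which mixes photosystem II and cytochrome b6f genes. psbB had 1436, 2476 and 3049 in pkl, against 598, 771 and 1265 in wild type (log2 difference 1.36 ± 0.29, SE, and adjusted p = 0.00155), and psbT next to it rose by 1.01 (adjusted p = 0.00765). psbN, psbH and petB, which follow in that order, gave log2 changes of 0.42, 0.14 and -0.089 and did not pass. petD, after petB, had 704, 1076 and 1495 in pkl, against 244, 371 and 624 in wild type (log2 difference 1.43 ± 0.27, SE, and adjusted p = 4.56e-04) without overlap. Earlier in the annotation order, atpH (0.63) and atpI (1.07), of the ATP synthase, rose between atpF (-0.02) and rps2 (-0.15), which did not pass. rps14, a ribosomal protein gene, rose by 1.28 and its neighbour psaB had -0.087. The others that rose were ndhJ (0.73) and its neighbour ndhK (0.81), psbD (0.78), of a photosystem II core protein, rpoB (0.84), of the chloroplast RNA polymerase, petG (0.73) and accD (0.55). Groups did not overlap for 9 of the 15, beside 51.6% of all probe sets called higher.

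**Figure D4:**
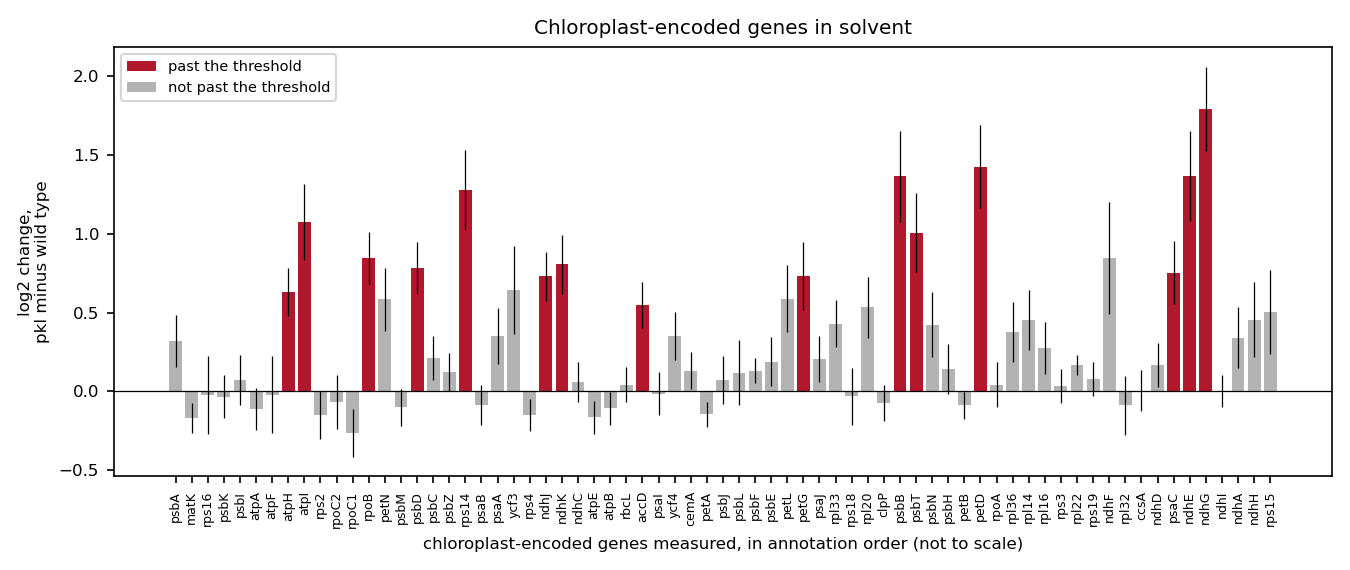
Log2 change, pkl minus wild type in solvent (bars, error bars are SE), of the 69 chloroplast-encoded genes measured, in the order of the annotation and not to scale. Red bars are the 15 genes past the threshold and grey bars the 54 others. ndhG, at 1.79, stands next to ndhI at 0.00057.

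All 15 chloroplast genes that rose were among the 35 with the lower mean signals over the 12 arrays (265 to 3195), and none of the 34 brighter probe sets (3474 to 19774) passed. This split was made after the values were seen and is not tested. Medians of the log2 change were 0.59 in the dimmer part and 0.020 in the brighter. The mean log2 signal of all 69 genes ranged over arrays between 11.46 and 11.87 in pkl and between 11.07 and 11.63 in wild type, so the groups overlapped. Wild type replicates 3 and 5, at 11.55 and 11.63, lay within the pkl range. By function, 4 of 10 ndh genes, 3 of 15 psb genes, 2 of 6 pet genes, 2 of 6 atp genes, 1 of 5 psa genes, 1 of 4 rpo genes, 1 of 8 rps genes and 0 of 7 rpl genes rose, and of the 8 others accD, a fatty acid synthesis gene.

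In the families of specialised metabolism and detoxification most calls were higher. Of all calls, 57.7% were higher, or 44.0% with arrays scaled to one median. Called were 16%, 8.33% and 35.7% of the UDP-glycosyltransferase, cytochrome P450 and glutathione transferase lists. Of all probe sets 11.7% were called, and of those with a symbol 15.8%. UDP-glycosyltransferases attach sugars to hormones and secondary metabolites. Of 50 of their genes with a symbol, 8 rose, 0 fell and 42 did not pass (median 0.05). UGT84A4 had 237, 257 and 349 in pkl, against 62.3, 104 and 248 in wild type and its highest wild type array lay inside the pkl range (log2 difference 1.14, adjusted p = 9.19e-04). UGT76E2 had 183, 248 and 338 in pkl, against 96.7, 120.0 and 161 in wild type, without overlap (log2 difference 0.97, adjusted p = 2.95e-04). UGT84A3 and UGT76E12 rose by 0.96 and 0.61. UGT74B1, a glucosinolate synthesis gene, and UGT71C2, UGT71C3 and UGT71C4 made up the rest. Of 24 cytochrome P450 genes, 2 rose, 0 fell and 22 did not pass (median 0.039). For 11 of the 24 neither group mean was above the bacterial control level. CYP71B26 had 167, 250.4 and 276 in pkl, against 65.8, 133 and 178 in wild type with some overlap (log2 difference 0.85, adjusted p = 4.38e-04), and CYP71B38 was at least 1.3-fold higher from a wild type mean of 23.6 (log2 difference 1.2, adjusted p = 0.0125). Among 14 glutathione transferase genes, 3 rose, 2 fell and 9 did not pass (median 0.025, and -0.015 with arrays scaled to one median). GSTU20 had 4025, 4329.8 and 4499 in pkl, against 2850.3, 3022 and 3274 in wild type and no overlap (log2 difference 0.49, adjusted p = 7.71e-06), GSTL3 and GSTU26 rose by 0.70 and 0.59, and GSTU27 fell (log2 difference -0.56, adjusted p = 0.00229).

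PRX52, a peroxidase gene of lignin formation, had 1065, 1222 and 1709 in pkl, against 229.9, 328 and 403 in wild type, and its groups were far apart (log2 difference 2.0 ± 0.21, SE, and adjusted p = 7.68e-08). Prx37, of the same enzyme class, was lower (log2 difference -0.53, adjusted p = 0.00816). APS4, a gene of ATP sulfurylase, which activates sulfate, had 926, 1281 and 1631 in pkl, against 343, 467 and 594 in wild type (log2 difference 1.44 ± 0.12, SE, and adjusted p = 1.59e-09) with no overlap. QQS, an orphan gene that affects starch content, had 182, 286 and 325 in pkl, against 16.7, 71.7 and 124 in wild type, again apart (log2 difference 1.77, adjusted p = 4.64e-05). CHIL, a chalcone isomerase-like gene, was the 1 of 9 flavonoid genes that passed, with 1888, 2138 and 2785 in pkl, against 1364, 1540.0 and 1718 in wild type (log2 difference 0.52, adjusted p = 5.96e-05). ACLA-1 and ACLA-2 encode subunits of ATP-citrate lyase, which makes acetyl-CoA in the cytosol. They were 2 of the 3 that fell among 25 genes of the TCA cycle and respiration, of which 12% were called, beside 11.7% of all probe sets. ACLA-1 had 5259, 5308 and 5538 in pkl, against 6866, 7392 and 8001 in wild type (log2 difference -0.45, adjusted p = 6.10e-05), and ACLA-2 1179, 1334 and 1498 in pkl, against 1589, 1725 and 1971 in wild type (log2 difference -0.40, adjusted p = 0.00117), both with no overlap.

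Hydrolase families moved both ways. Of 29 serine carboxypeptidase-like genes, 2 rose, 3 fell and 24 did not pass (median -0.041, and 0.024 under quantile normalisation). scpl44 (AT1G43780) was among the brightest genes that fell, with 5358, 6632 and 8081 in pkl, against 12543, 14722 and 16858 in wild type and no overlap (log2 difference -1.18 ± 0.10, SE, and adjusted p = 1.36e-09). scpl48 fell too (log2 difference -0.60, adjusted p = 0.00111), while SCPL45 had 1051, 1285 and 1525 in pkl, against 675, 786 and 1086 in wild type with a slight overlap (log2 difference 0.64, adjusted p = 7.15e-05) and SCPL49 rose by 0.32. Of 22 beta-glucosidase genes, 2 rose, 3 fell and 17 did not pass (median 0.075). BGLU19 had 415, 629.9 and 977 in pkl, against 219.6, 326 and 359 in wild type, without overlap (log2 difference 1.05, adjusted p = 0.00192), and BGLU44, far brighter, had 5016, 5188 and 5845 in pkl, against 3449.9, 4121 and 4237 in wild type (log2 difference 0.42, adjusted p = 1.59e-04). BGLU42 fell (log2 difference -0.38, adjusted p = 0.00571). SBT4.12 was the 1 of 12 subtilase genes to pass, 8.33% beside 11.7% of all probe sets (log2 difference -0.70, adjusted p = 0.00635).

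Among genes of chromatin and transcription, HIS1-3, a linker histone gene induced by drought, had 154, 176 and 205 in pkl, against 16.3, 84.4 and 101 in wild type and no overlap (log2 difference 1.16 ± 0.23, SE, and adjusted p = 7.00e-04). Of 8 histone genes, 2 rose, 0 fell and 6 did not pass, and HON4 (log2 difference 0.29, adjusted p = 0.00908), the other that rose, did not pass with arrays scaled to one median (adjusted p = 0.1). The 23 genes of chromatin remodelling and modification had 2 higher, INO80 and ULT1, and neither passed with arrays scaled to one median or quantile normalised. INO80 also missed the threshold with the solvent arrays alone, no variance trend or control-ratio covariates, and without any 1 of 10 arrays (pkl replicates 1, 2, 3, 4 and 5 and wild type replicates 2, 3, 4, 5 and 6, adjusted p up to 0.118), and ULT1 without any 1 of 5 (pkl replicates 2, 3 and 5 and wild type replicates 2 and 4, adjusted p up to 0.0806). AGL87, a MADS-box gene, had 191, 226 and 299.5 in pkl, against 425, 525 and 594 in wild type (log2 difference -1.07 ± 0.13, SE, and adjusted p = 6.11e-07). It was the 1 of 40 MADS-box genes that passed, 2.5% beside 11.7% of all probe sets. For 27 of the 40 neither group mean was above the bacterial control level, and calls were scarce at low signal. SNZ, a floral repressor of the AP2 class, had 17, 73.4 and 91.2 in pkl, against 88.1, 149 and 216 in wild type, with a slight overlap (log2 difference -1.11, adjusted p = 0.0254). It missed the threshold without any 1 of 5 arrays (pkl replicates 3 and 6 and wild type replicates 3, 4 and 6, adjusted p up to 0.0794). ROXY2, a glutaredoxin gene of anther development, had 74.2, 105 and 125 in pkl, against 20.4, 26.5 and 88.7 in wild type and was at least 1.89-fold higher (log2 difference 1.3, adjusted p = 0.0183). bZIP44 had 2245, 2413 and 2842 in pkl, against 1626, 1900.0 and 1995 in wild type and rose without overlap (log2 difference 0.39, adjusted p = 0.00134). NRPB12, a subunit gene of nuclear RNA polymerases, had 3080.0, 3429 and 3739 in pkl, against 3967, 4453 and 4992 in wild type and fell without overlap (log2 difference -0.38, adjusted p = 0.00181).

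Some cytoskeleton and membrane genes were called in each direction. NET4B, of an actin-binding family, had 2416, 2518 and 3039 in pkl, against 1448, 1595 and 1739.5 in wild type (log2 difference 0.69 ± 0.087, SE, and adjusted p = 2.26e-06) with no overlap, and NET1B rose by 0.65 (adjusted p = 0.0133), 2 of 10 in that family. Of 29 TRM and IQD genes, which act at microtubules, 4 rose, 1 fell and 24 did not pass (median -0.0071). IQD18 and TRM24 rose by 0.67 and 0.57, and iqd21 had 382, 427 and 481 in pkl, against 573, 639.8 and 686 in wild type and fell without overlap (log2 difference -0.53, adjusted p = 2.35e-05). TUB9, a beta-tubulin gene, was the 1 of 9 tubulin and actin genes that passed (log2 difference -0.30, adjusted p = 0.00103). SWEET11, a sucrose exporter gene, had 158, 256 and 333 in pkl, against 359, 433 and 550.0 in wild type and fell without overlap (log2 difference -0.89, adjusted p = 2.26e-04), as did OCT5, an organic cation transporter gene, with 371, 489 and 685 in pkl, against 769, 855 and 1060.1 in wild type (log2 difference -0.87, adjusted p = 5.21e-05). MTP11, a manganese transporter gene, rose (log2 difference 0.39, adjusted p = 2.35e-04). PRA1 genes, which act in vesicle traffic, had PRA1.E and PRA8 higher and PRA7 and PRA1.B6 lower among 11, with PRA1.B6 at 956, 1118 and 1163 in pkl, against 1350.4, 1494 and 1626 in wild type (log2 difference -0.45, adjusted p = 0.00255). PRA8 did not keep its call without any 1 of 8 arrays (pkl replicates 1, 4, 5 and 6 and wild type replicates 3 to 6, adjusted p up to 0.121), nor with arrays scaled to one median, the solvent arrays alone, no variance trend or control-ratio covariates (up to 0.166).

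Of 41 genes of ubiquitin conjugation and removal, 3 rose, 3 fell and 35 did not pass (median -0.034). That is 14.6% called, near the 11.7% of all probe sets. ATL5, of a RING ligase family, had 53.4, 125 and 191 in pkl, against 20.2, 31.6 and 84.5 in wild type and was at least 2.17-fold higher, with 1 wild type array inside the pkl range (log2 difference 1.26, adjusted p = 0.00378). UBC16 rose (log2 difference 0.89, adjusted p = 0.00498) and SK18, an SCF adaptor gene, had 1184, 1295 and 1512 in pkl, against 1815, 1928 and 2295 in wild type and fell (log2 difference -0.59, adjusted p = 1.72e-05). Calmodulin-like genes, which sense calcium, had CML41 and CML38 higher among 7, with CML41 at 199.5, 237 and 286 in pkl, against 83.6, 121 and 153 in wild type and no overlap (log2 difference 0.96, adjusted p = 1.12e-05). CML37 was lower in pkl, with means of 8.52 in pkl and 38.5 in wild type that were both under the bacterial control level (adjusted p = 0.0116). ECS1 was at least 1.91-fold lower (log2 difference -1.09, adjusted p = 0.0133). CLE26, a signal peptide gene, had 9.1, 10.6 and 57.6 in pkl, against 27.2, 52.5 and 103 in wild type, with overlap, and its wild type mean of 58.3 barely passed the bacterial control level. Its call (log2 difference -1.19, adjusted p = 0.0293) was lost without any 1 of 7 arrays (pkl replicates 1, 2, 4, 5 and 6 and wild type replicates 5 and 6, adjusted p up to 0.0763) and with an offset of 64 (0.0563). RECQ4A, a DNA helicase gene of recombination, had 356, 490.3 and 530.0 in pkl, against 556, 653 and 779 in wild type and fell without overlap (log2 difference -0.50, adjusted p = 0.00103). RAD4 was the other of 19 DNA repair genes that fell, so 10.5% were called, beside 11.7% of all probe sets.

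Genes known here only by a locus code made up 11933 of the probe sets. Of them 696 rose (5.83%) and 474 fell (3.97%), beside 6.78% and 4.97% of all probe sets. A change of at least 1 on the log2 scale was seen for 102 locus codes that rose and 54 that fell. No function is given for these codes, since the gene table used here holds none, apart from AT5G48570. Of all called probe sets that rose by at least 1, 75.0% had groups without overlap. So did all of the 12 locus codes that rose most, which were chosen by size on these same arrays. AT3G23060 led them, with 467, 580.1 and 669.8 in pkl, against 26.5, 75.5 and 168 in wild type (log2 difference 2.82 ± 0.26, SE, and adjusted p = 7.61e-09). AT3G61930 had 250.1, 493 and 678 in pkl, against 3.9, 75.7 and 115 in wild type (log2 difference 2.65 ± 0.33, SE, and adjusted p = 1.71e-06), and its lowest wild type array was near 0 signal while the other 5 lay at 54.4 or above. AT4G24130 had 625, 777 and 859.7 in pkl, against 91.1, 114 and 140.1 in wild type, a wide gap with little spread in either group (log2 difference 2.58 ± 0.15, SE, and adjusted p = 1.08e-12). AT2G22590 was at least 4.52-fold higher, with 158, 257 and 305 in pkl, against 8.7, 23.9 and 77.7 in wild type (log2 difference 2.54, adjusted p = 1.36e-06).

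AT1G52100 was by far the brightest probe set among these 12, with 4273, 5012 and 5864 in pkl, against 786, 959 and 1539 in wild type, a fold of 4.69 (log2 difference 2.26 ± 0.13, SE, and adjusted p = 1.08e-12). AT1G19530 had 1016, 1289.6 and 1486 in pkl, against 179, 233 and 309 in wild type (log2 difference 2.33 ± 0.14, SE, and adjusted p = 4.66e-12). AT5G62210 had 712, 868 and 1311 in pkl, against 104, 181 and 369.5 in wild type, with a wide spread in wild type but no overlap (log2 difference 2.18, adjusted p = 3.27e-08). AT4G00390 and AT2G29340 were tighter. AT4G00390 had 757, 796 and 977 in pkl, against 144, 189.9 and 250.3 in wild type (log2 difference 2.04, adjusted p = 4.66e-12), and AT2G29340 had 465, 678 and 699 in pkl, against 109.8, 156 and 175 in wild type (log2 difference 1.96, adjusted p = 2.80e-11). AT3G44020 had 268, 312 and 346 in pkl, against 35.5, 70.8 and 114 in wild type (log2 difference 1.98, adjusted p = 7.61e-09). Where wild type means did not reach the bacterial control level, pkl exceeded wild type at least 4.21-fold for AT1G47540 (adjusted p = 1.03e-04) and at least 2.31-fold for AT5G16230 (adjusted p = 6.35e-05).

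Of the 12 that fell most, 10 had groups without overlap, beside 72.4% of all called probe sets that fell by at least 1. AT5G48570, listed in RefSeq under the synonyms ROF2 and FKBP65 of a peptidyl-prolyl isomerase, had 5.8, 25.4 and 45.3 in pkl, against 158, 203 and 260.2 in wild type. Its pkl arrays were all under the bacterial control level and its wild type arrays all well above it, at least 3.77-fold lower in pkl (log2 difference -2.55 ± 0.24, SE, and adjusted p = 1.13e-08). AT2G43860 had 69.7, 118 and 169 in pkl, against 505, 659.8 and 1026 in wild type, a wide gap (log2 difference -2.41 ± 0.25, SE, and adjusted p = 1.06e-07). AT4G32340 had 139.7, 162 and 178 in pkl, against 472, 559 and 725 in wild type and AT1G72800 had 232, 252 and 319 in pkl, against 797, 859 and 989 in wild type. Both were tight within each group and far apart between them (log2 difference -1.77, adjusted p = 2.08e-10; log2 difference -1.69, adjusted p = 4.49e-10). AT1G49470 and AT1G29080 were bright. AT1G49470 had 1044, 1507 and 1846 in pkl, against 3890.0, 4559 and 5209 in wild type (log2 difference -1.62, adjusted p = 1.16e-07), and AT1G29080 had 1138, 1354 and 1947 in pkl, against 3219.7, 4079 and 4482 in wild type (log2 difference -1.48, adjusted p = 3.89e-06). AT3G27400 had 288, 341 and 440.4 in pkl, against 847, 1032 and 1238 in wild type (log2 difference -1.54, adjusted p = 1.70e-07) and AT1G12080 had 48.5, 77.3 and 93 in pkl, against 188, 242 and 358 in wild type (log2 difference -1.6, adjusted p = 5.03e-06), neither with overlap.

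The remaining 4 of these 12 were dim in pkl, with means under the bacterial control level. AT1G44050 was at least 2.0-fold lower, AT1G21540 at least 1.67-fold, AT1G26290 at least 1.83-fold and AT1G72230 at least 1.98-fold (adjusted p = 7.60e-05, 1.78e-04, 0.00273 and 0.00778). AT1G26290 and AT1G72230 were the 2 with overlap, since 1 pkl array of AT1G26290 reached 92.7 and 1 wild type array of AT1G72230 lay at 31.6.

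**Figure D5:**
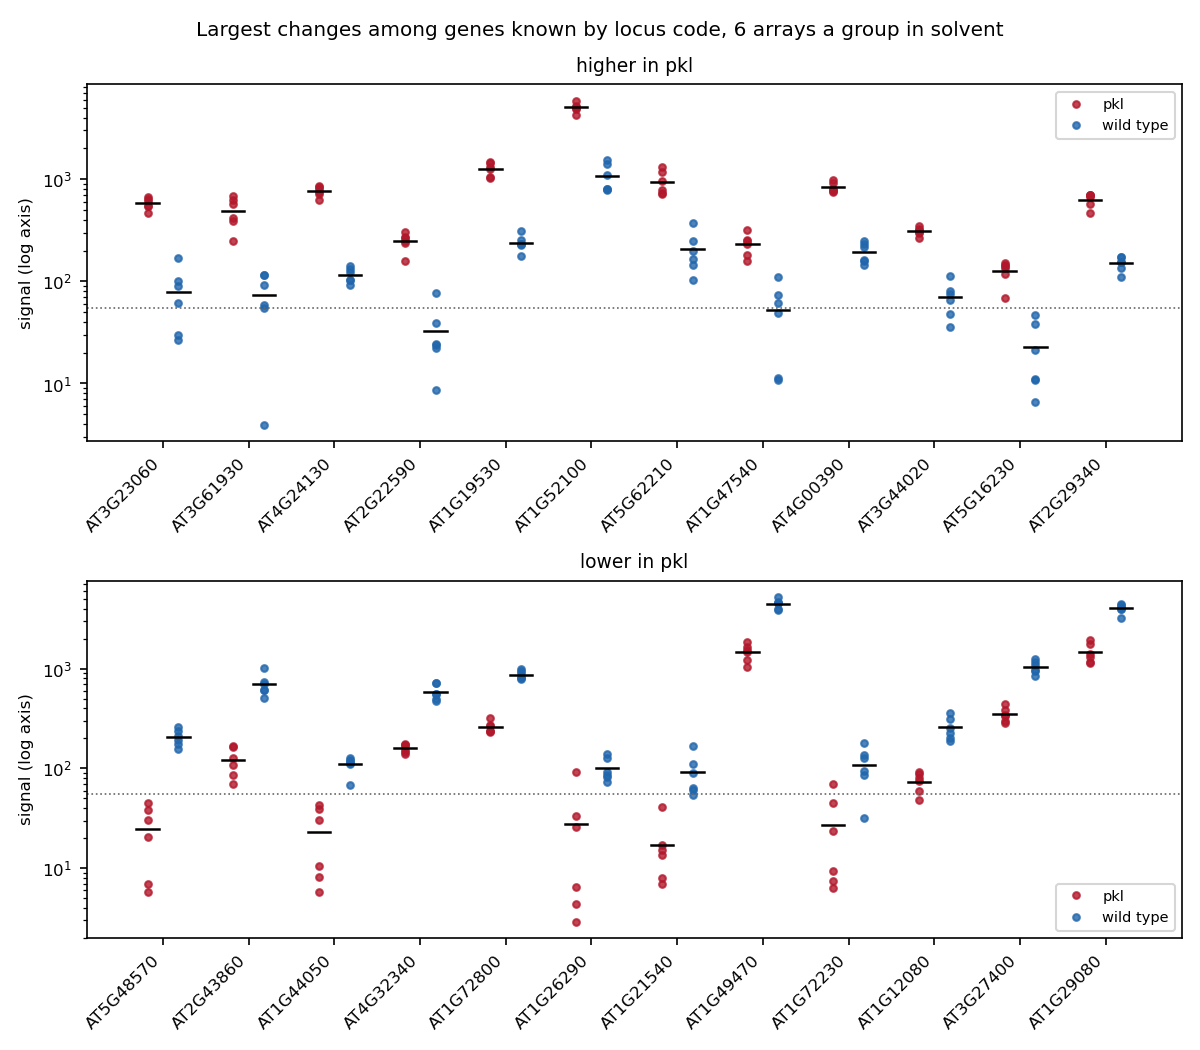
Signal on each array (points, log axis) of the 12 genes known by locus code that rose most (top) and the 12 that fell most (bottom), with pkl in red on the left of each pair and wild type in blue on the right, 6 arrays each in solvent. Black bars are means and the dotted line is the bacterial control level of 54.9. AT1G52100 reached 5864 in pkl, and all 6 pkl arrays of AT5G48570 lay under the dotted line.

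The share of called neighbours of these genes was near that of all genes. Of the 48 nearest measured neighbours of the 24 genes, on both sides in annotation order, 4 were called in the same direction as the gene, 1 in the opposite direction and the other 43 not at all, so 10.4% were called, beside 10.5% of all genes placed on the nuclear chromosomes. The 5 called, named after their values were seen, included AT4G24110 near AT4G24130 (log2 difference 0.46, adjusted p = 0.00588) and AT1G72810 beside AT1G72800 (log2 difference -0.42, adjusted p = 0.00443). AT3G27390 beside AT3G27400 (log2 difference -0.22, adjusted p = 0.0404) lost its call without any 1 of 6 arrays (pkl replicates 4, 5 and 6 and wild type replicates 2, 3 and 5, up to 0.105). AT1G29070 near AT1G29080 (log2 difference -0.18, adjusted p = 0.046) lost it without any 1 of 9 (pkl replicates 1, 3, 4 and 5 and wild type replicates 1, 2, 4, 5 and 6, up to 0.122). AT1G26300, the opposite one, beside AT1G26290 (log2 difference 0.38, adjusted p = 0.037), lost it without any 1 of 8 (pkl replicates 1, 2, 5 and 6 and wild type replicates 1, 2, 3 and 6, up to 0.0915). Over 13216 genes placed on the nuclear chromosomes, 1385 were called. Of 6007 adjacent pairs with both genes measured, 82 had both called, 49 in the same direction and 33 in opposite directions. In 7 places 3 successive measured genes were called in one direction. Whether these pairs and runs exceed what the called shares alone would give was not tested. Successive measured genes can have others between them, and in the run with NRPB12 they lay 4 and 5 genes apart. In the run on chromosome 4, WES1, AT4G27270 and AT4G27280 rose by 0.58, 0.51 and 0.45 with no overlap in any of them. On chromosome 3, BGLU19, AT3G21380 and AT3G21390 rose by 1.05, 1.0 and 0.30. On chromosome 5, AT5G02550 and AT5G02580 rose by 0.53 and 0.41, and AT5G02570 between them by 0.75, a call lost without wild type replicate 6 (adjusted p = 0.0562) and with the solvent arrays alone (0.0519). In the 4 other runs some calls lay near the threshold. AT1G28120, after AT1G28100 and SCPL45 (log2 changes of 0.36 and 0.64), lost its call without any 1 of 10 arrays (pkl replicates 1, 2, 3, 4, 5 and 6 and wild type replicates 3, 4, 5 and 6, adjusted p up to 0.107) and with an offset of 1, dim probe sets left out, arrays scaled to one median or no variance trend (up to 0.42), while its log2 difference lay between 0.14 and 0.17 whichever array was left out. AT2G43535, between AT2G43530 (0.75) and AT2G43540 (0.71), lost it without any 1 of 6 (pkl replicates 1, 4 and 5 and wild type replicates 1, 2 and 6, up to 0.0888) and with arrays scaled to one median or no variance trend (up to 0.0669). In the run that fell around NRPB12, AT5G40980 lost it without any 1 of 7 (pkl replicates 1, 2, 4 and 6 and wild type replicates 2, 5 and 6, up to 0.0932) and with the solvent arrays alone (0.0744), and AT5G41050 without any 1 of 10 (pkl replicates 1, 2, 3, 4 and 6 and wild type replicates 2, 3, 4, 5 and 6, up to 0.0954) and with the solvent arrays alone or the replicate block (up to 0.0991). Around AT5G41860, which rose by 0.98, AT5G41850 lost it without any 1 of 7 (pkl replicates 1, 3 and 4 and wild type replicates 1, 2, 4 and 6, up to 0.118) and with arrays scaled to one median or quantile normalisation (up to 0.068), and AT5G41870 without any 1 of 7 (pkl replicates 1, 4, 5 and 6 and wild type replicates 4, 5 and 6, up to 0.11) and with arrays scaled to one median, quantile normalisation, the solvent arrays alone or no variance trend (up to 0.0833). Between 9.68% and 11% of the genes of each nuclear chromosome were called.

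A further 8730 probe sets had no gene in the annotation used here. Of them 671 rose (7.69%) and 538 fell (6.16%), beside 6.78% and 4.97% of all probe sets. They held the largest changes of all. Probe set 248125_at had 4447, 5043 and 5676 in pkl, against 228, 293 and 394 in wild type, a fold of 16.6 (log2 difference 4.01 ± 0.13, SE, and adjusted p = 5.78e-18), and 258240_at had 776, 1255 and 1885 in pkl, against 86.2, 100 and 121 in wild type (log2 difference 3.38 ± 0.16, SE, and adjusted p = 1.20e-14). On the other side 255248_at had 18.7, 56.3 and 62.7 in pkl, against 257, 379.6 and 532 in wild type, at least 7.16-fold lower (log2 difference -2.68 ± 0.29, SE, and adjusted p = 1.54e-07), and 260179_at had 13.8, 59 and 113 in pkl, against 279.6, 323 and 488 in wild type (log2 difference -2.47, adjusted p = 8.97e-06). All 4, picked as the largest changes, had groups without overlap. Among 503 probe sets that match several genes, 27 rose (5.37%) and 17 fell (3.38%). Of 989 annotated pseudogenes measured, 5 rose and 2 fell, so 0.708% were called, beside 11.7% of all probe sets. Of the 989, 277 had a group mean above the bacterial control level. RSU1, annotated as a transcribed pseudogene, had 79.9, 165 and 209.6 in pkl, against 393, 472 and 773 in wild type and fell without overlap (log2 difference -1.69 ± 0.25, SE, and adjusted p = 1.83e-05). AT1G35612, also annotated as a pseudogene, had 177, 240.4 and 317 in pkl, against 50.6, 93.7 and 145 in wild type and rose without overlap (log2 difference 1.33, adjusted p = 4.74e-04).

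The 12 arrays with uniconazole, which share no array with the solvent groups, gave the same contrast on the other medium. Both contrasts came from 1 fit with 1 estimate of the spread per probe set, so their calls are not independent. With uniconazole 9.87% of all probe sets were higher in pkl and 8.69% lower (limma, threshold 0.05). Of the 1542 that rose in solvent, 1022 rose with uniconazole, 66.3% of the first list and 45.5% of the 2246 of the second. Of the 1130 that fell in solvent, 793 fell with uniconazole, 70.2% and 40.1%. Among locus codes the shares of the solvent calls were 463 of 696 and 309 of 474. All 30 symbol genes and all 24 locus codes described as the largest changes kept their sign with uniconazole. The call was repeated for 14 of the 15 symbol genes that rose and 12 of the 15 that fell, and for 12 of 12 locus codes that rose and 10 of 12 that fell. ROXY2 (0.31), CLE26 (-0.29), SNZ (-0.44), IAA20 (-0.44), AT1G21540 (-0.016) and AT1G72230 (-1.09) were those that did not pass there, with adjusted p-values of 0.634, 0.651, 0.404, 0.411, 0.981 and 0.0597.

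Calls in opposite directions on the 2 media were made for 5 probe sets, among them OLEO3 (log2 change -0.57 in solvent and 0.29 with uniconazole) and, named after their values were seen, AT1G13370 (0.94 and -0.85) and AT1G65490 (-0.64 and 0.51). For these 2 locus codes the difference itself did not pass (adjusted p = 0.066 and 0.0507). The difference between the pkl effects with uniconazole and in solvent was itself called for 32 probe sets (0.141%), and among the genes described here for OLEO3, scpl44 and AT2G43860.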

How the data were processed

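RNA of germinating seeds was hybridised to 24 single-colour ATH1 arrays. The deposited values are linear signal intensities, 1 per probe set and array, made by the authors with MAS5, per the submitters' processing notes, and their trimmed means over probe sets were alike on all arrays (1000.1). Neither the version nor further settings are given in the sources used here, and the precision is limited by 6 arrays a group. From the deposited intensities log2(signal + 16) was computed and fitted with limma 3.58.1 (R 4.3.3) as 4 group means over all 24 arrays, with eBayes and a variance trend. P-values were adjusted by Benjamini-Hochberg over the 22746 probe sets that remained without 64 control probe sets, at a threshold of 0.05. Quality measures were compared by exact permutation (Python 3.11.15, SciPy 1.17.1, pandas 2.3.3), and plots were drawn with matplotlib 3.10.9. The fit was tested on simulated data with independent normal noise. Of 200 probe sets with mean signals above the bacterial control level, changed by 1 on the log2 scale, 87.5% were recovered. There were 7 false calls for the solvent comparison. Recovery of dimmer probe sets or smaller changes was not tested.

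Genes were named through the platform annotation and RefSeq, where 13436 of 13513 probe sets with 1 gene matched. In gene lists each gene was read by its probe set with the highest mean. Apart from organelle-encoded genes and pseudogenes, lists were made from symbols, so the 11933 locus-only and 8730 unnamed probe sets could not enter. Named were the 15 largest rises and 15 largest falls with a symbol and 12 and 12 with a locus code only, all among called probe sets whose brighter group mean was above the bacterial control level, and, at any signal, up to 4 called members a list, members that opposed their list, and members of runs of neighbouring genes. A few further called list members are named, chosen after their values were seen. The genes, 48 lists and alternatives were chosen with earlier results of these data known. Alternatives were offsets of 64 and 1, a filter on dim probe sets, scaling to one median, quantile normalisation, the solvent arrays alone, no variance trend, a replicate block, control-ratio covariates and leaving out each array. Promoter motifs were not analysed here.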

Additional observations from a re-analysis of the deposited data

Results flagged for a closer look

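Within the groups of 6 arrays, 31 of 352 groups examined over the named genes held an array that stood apart from the other 5, by a gap that, as a share of the group's log2 range, was over Dixon's critical value for 6 values. Chance gives such a gap in about 1 of 20 groups. Each gap is given as a share of the range. For CLE26, pkl replicate 3 read 57.6 against 9.1 to 10.8 in the other 5 (gap 0.939). For CYP71B38, pkl replicate 4 read 23 against 75.4 to 88.2 in the other 5 (gap 0.867). For HIS1-3, wild type replicate 1 read 16.3 against 82.3 to 101 in the other 5 (gap 0.864). For ROXY2, wild type replicate 5 read 88.7 against 20.4 to 29.1 in the other 5 (gap 0.797). For CHL, pkl replicate 1 read 82 against 164 to 195 in the other 5 (gap 0.793).

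A pkl array was low for UBC16 (replicate 2, 0.732), GSTU27 (replicate 2, 0.727), LHCB4.2 (replicate 4, 0.697), EXPA4 (replicate 3, 0.696), BGLU42 (replicate 2, 0.694) and AT5G02580 (replicate 3, 0.689). Also low in pkl were RAD4 (replicate 6, 0.688), AT5G16230 (replicate 5, 0.682), EXO (replicate 2, 0.644), GH3.3 (replicate 2, 0.636) and AT2G22590 (replicate 2, 0.626). A wild type array was low for AT1G44050 (replicate 6, 0.785), AT5G41050 (replicate 1, 0.75), PDF2.5 (replicate 1, 0.683), HYH (replicate 2, 0.674), AT3G61930 (replicate 1, 0.67) and AT1G28100 (replicate 6, 0.664). Also low in wild type were AT5G41860 (replicate 5, 0.651), BGLU19 (replicate 3, 0.633), QQS (replicate 1, 0.631) and AT1G29080 (replicate 5, 0.629). A pkl array was high for NET4B (replicate 4, 0.688) and ICL (replicate 2, 0.626). A wild type array was high for BAN (replicate 6, 0.704), ULT1 (replicate 6, 0.691) and ATL5 (replicate 2, 0.645).

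The pkl effect differed with the medium, by limma's test of the difference adjusted over all probe sets, for 3 named genes. For OLEO3 the log2 change, pkl minus wild type, was 0.29 with uniconazole and -0.57 in solvent, a difference of 0.86 (adjusted p = 0.00371). For AT2G43860 the log2 change, pkl minus wild type, was -4.27 with uniconazole and -2.41 in solvent, a difference of -1.86 (adjusted p = 0.0256). For scpl44 the log2 change, pkl minus wild type, was -2.08 with uniconazole and -1.18 in solvent, a difference of -0.91 (adjusted p = 0.00211).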

How the results depend on the processing

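The 1542 higher, 1130 lower and 365 probe sets changed by at least 1 on the log2 scale became 1561, 1139 and 182 with an offset of 64, and 1509, 1116 and 438 with an offset of 1. With the solvent arrays alone they were 1411, 1066 and 365. Scaled to one median, 44.0% of the calls were higher in pkl, against 57.7% on the deposited scale, and the median log2 change of all probe sets was -0.044. Leaving out each array in turn gave 1288 to 1564 higher, 909 to 1201 lower and 354 to 382 of size 1 or more. No direction among 176 named probe sets reversed. Of 169 called, 140 passed under every alternative and 29 were lost under at least 1, 28 of them when 1 array was left out, and 2 others, RCA and LHCB4.1, passed only under alternatives. The cause was not tested.

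Replicate numbers are not stated to pair the genotypes. Deviations from the group means of same-numbered arrays correlated at 0.058 to 0.205. The wild type array that correlated best had the same number for pkl replicates 2, 3 and 5, and another number for 1, 4 and 6. Whether the numbers pair the arrays was not tested. With the number as a replicate block 1711 probe sets were higher, 1326 lower and 373 of size 1 or more. The planned count of promoter motifs was not run. Low signal limits the dimmest probe sets most.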

Other observations

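Among 16 mitochondrion-encoded genes, nad6, a subunit gene of respiratory complex I, was higher in pkl (log2 difference 0.62, adjusted p = 0.0194), but not without pkl replicate 5 (adjusted p = 0.0526). ccb452, a gene of cytochrome c maturation, had 615, 623 and 778 in pkl, against 845, 992 and 1079 in wild type (log2 difference -0.55, adjusted p = 8.95e-06).

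Of 147 genes with more than 1 probe set, 25 had at least 1 called, 4 had all called in one direction and 0 had calls in both directions (limma). Of all probe sets 11.7% were called. Whether these counts differ from what that share alone would give was not tested.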
